A study of Mus musculus with 16 samples.

Results

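The gene set described here was 10 genes that carry glucose into a cell, break it down to pyruvate and export the lactate made from it: Slc2a1, Hk2, Pfkp, Pfkfb3, Aldoa, Pgk1, Eno1, Pkm, Ldha and Slc16a3. They were chosen by name, from a table of 53647 genes measured by RNA-seq in 16 mouse lung libraries. All 10 were found in the table and all 10 were among the 17003 genes that passed the filter on low values, which asked for at least 1 TPM in at least 4 libraries. TPM is a relative abundance corrected for transcript length, with every library brought to the same total.

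The study compared 4 groups of 4 libraries: lungs labelled control, lungs given bleomycin, lungs given bleomycin and an adenovirus labelled Ad-GFP, and lungs given bleomycin and an adenovirus labelled Ad-ATP12A. Bleomycin is a drug used to scar rodent lungs, Ad-GFP is the vector control with green fluorescent protein, and ATP12A is the catalytic subunit of a proton pump. All 3 exposed groups thus share bleomycin, and no group had virus without it. Each group has 2 libraries from the set the labels call batch 1 and 2 from batch 2, and a library is named here by both, so that b2r1 is replicate 1 of batch 2. The labels used here give no strain, sex, age, dose or time and do not say that each library is a separate animal, so p-values measure the spread between libraries, which may be partly technical. In 3 libraries, Scgb1a1, the secretoglobin of club cells in the airways, was far below its level elsewhere. They were Ad-GFP b1r1 at 295.4 TPM, bleomycin b2r2 at 127.7 TPM and control b2r1 at 441 TPM, while the 13 others held 24870 to 122300 TPM. Calls of the 10 genes that ended without these 3 libraries are given with each gene.

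Glycolysis splits glucose into pyruvate in a chain of enzymes in the cytosol, and yields ATP without oxygen. When pyruvate is turned to lactate instead of entering mitochondria, the lactate leaves the cell together with a proton, so this route also acidifies the space around cells. In lung, the route is known to be used strongly by activated macrophages and by the myofibroblasts that lay down scar. Many of its genes are known targets of the hypoxia-inducible factors, transcription factors that bind a short element with the core letters ACGTG or GCGTG.

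Those core letters lie close to the start sites of several of the genes. The stretches printed here are the 250 bases before a RefSeq transcription start in the mouse build GRCm38.p6, read 5′ to 3′ on the gene's strand. Shown are 5 of the 7 genes whose levels varied together in the exposed libraries, 4 with ACGTG (Slc2a1, Pgk1, Ldha and Slc16a3) and 1 without it (Eno1), and Pfkfb3, whose level did not vary with theirs. Capitals mark the core letters on either strand, so that ACGTG can also appear as its reverse complement. Where the capitals read the same on both strands, ACGTG was counted 1 time for each strand. The stretches are at chr4:119108495-119108744 on the plus strand for Slc2a1, chrX:106186850-106187099 on the plus strand for Pgk1, and chr7:46845554-46845803 on the plus strand for Ldha. For Slc16a3 the stretch is chr11:120948817-120949066 on the plus strand, and for the start of Pfkfb3 numbered 2 here it is chr2:11502091-11502340 on the minus strand. The stretch before start 1 of Eno1 is chr4:150236458-150236707 on the plus strand.
Slc2a1: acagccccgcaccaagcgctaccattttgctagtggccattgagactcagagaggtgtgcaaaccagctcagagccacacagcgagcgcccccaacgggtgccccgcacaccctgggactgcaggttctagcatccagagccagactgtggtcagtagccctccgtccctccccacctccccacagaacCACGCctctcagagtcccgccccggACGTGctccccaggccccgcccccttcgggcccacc
Pgk1: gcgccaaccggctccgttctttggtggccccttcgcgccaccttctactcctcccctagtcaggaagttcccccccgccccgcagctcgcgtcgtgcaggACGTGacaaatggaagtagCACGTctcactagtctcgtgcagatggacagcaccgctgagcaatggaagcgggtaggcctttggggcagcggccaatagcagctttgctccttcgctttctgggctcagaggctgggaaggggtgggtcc
Ldha: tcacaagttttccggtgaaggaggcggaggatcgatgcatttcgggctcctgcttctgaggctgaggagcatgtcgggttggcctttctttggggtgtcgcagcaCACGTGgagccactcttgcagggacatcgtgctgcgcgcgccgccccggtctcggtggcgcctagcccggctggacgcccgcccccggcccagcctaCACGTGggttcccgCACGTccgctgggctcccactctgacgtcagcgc
Slc16a3: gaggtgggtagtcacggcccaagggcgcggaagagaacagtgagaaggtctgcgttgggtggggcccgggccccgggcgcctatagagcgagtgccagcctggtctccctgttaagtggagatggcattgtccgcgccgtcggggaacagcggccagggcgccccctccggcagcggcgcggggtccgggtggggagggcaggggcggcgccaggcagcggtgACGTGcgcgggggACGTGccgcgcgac
Eno1: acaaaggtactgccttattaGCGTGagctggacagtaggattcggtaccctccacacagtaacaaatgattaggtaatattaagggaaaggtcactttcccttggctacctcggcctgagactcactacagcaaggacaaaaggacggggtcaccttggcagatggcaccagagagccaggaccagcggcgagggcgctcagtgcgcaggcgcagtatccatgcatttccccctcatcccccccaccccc
Pfkfb3: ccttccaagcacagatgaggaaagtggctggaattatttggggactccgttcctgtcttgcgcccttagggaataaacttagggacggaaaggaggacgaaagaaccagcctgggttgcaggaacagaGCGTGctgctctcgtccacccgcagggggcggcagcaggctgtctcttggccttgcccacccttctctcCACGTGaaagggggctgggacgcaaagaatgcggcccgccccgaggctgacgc

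Counted on both strands, the Ldha stretch held ACGTG 5 times, Pgk1 and Slc16a3 held it 2 times each, Slc2a1 held ACGTG 1 time and GCGTG 1 time, and Pfkfb3 held ACGTG 2 times and GCGTG 1 time. The Eno1 stretch held GCGTG 1 time, and ACGTG was before none of the 3 starts of Eno1. It was absent too before start 1 of Aldoa and start 1 of Pkm, which held neither run of letters, before start 2 of Ldha and before the start of Pfkp, while the other starts of Aldoa and Pkm each held it 1 time. All 10 genes were matched by symbol to 17 start sites. ACGTG was within 250 bases before 58.8% of those starts, beside 20.5% of the 15032 starts of genes tested and 16.6% of all 32851 starts in the table. GCGTG was before 41.2% of them, beside 41.6% of the starts of genes tested and 28.2% of all starts. The 17 stretches had a median GC content of 66.4%, against 58.8% for genes tested, and starts of 1 gene can overlap. A match is a run of letters and not a binding site, and genes that varied together and genes that did not both held it.

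Across the libraries, the sum of the 10 genes separated the control libraries from most, not all, of the exposed ones. In control it was 1085, 1088, 1312 and 1072 TPM in b1r1, b1r2, b2r1 and b2r2. In bleomycin it was 1881, 1769, 1268 and 1656 TPM in the same order, and in Ad-GFP 1276, 1838, 1347 and 2194 TPM. In Ad-ATP12A it was 1536, 1311, 2380 and 2303 TPM. Bleomycin b2r1, Ad-GFP b1r1 and Ad-ATP12A b1r2 therefore lay inside the range of the control libraries. The top of that range was control b2r1 alone, a library low in Scgb1a1, and the other controls, at 1072 to 1088 TPM, were below every exposed library. The controls were closer to each other (SD 115 TPM) than the libraries of any exposed group (SD 267, 433 and 539 TPM, n = 4 each).

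**Figure D1:**
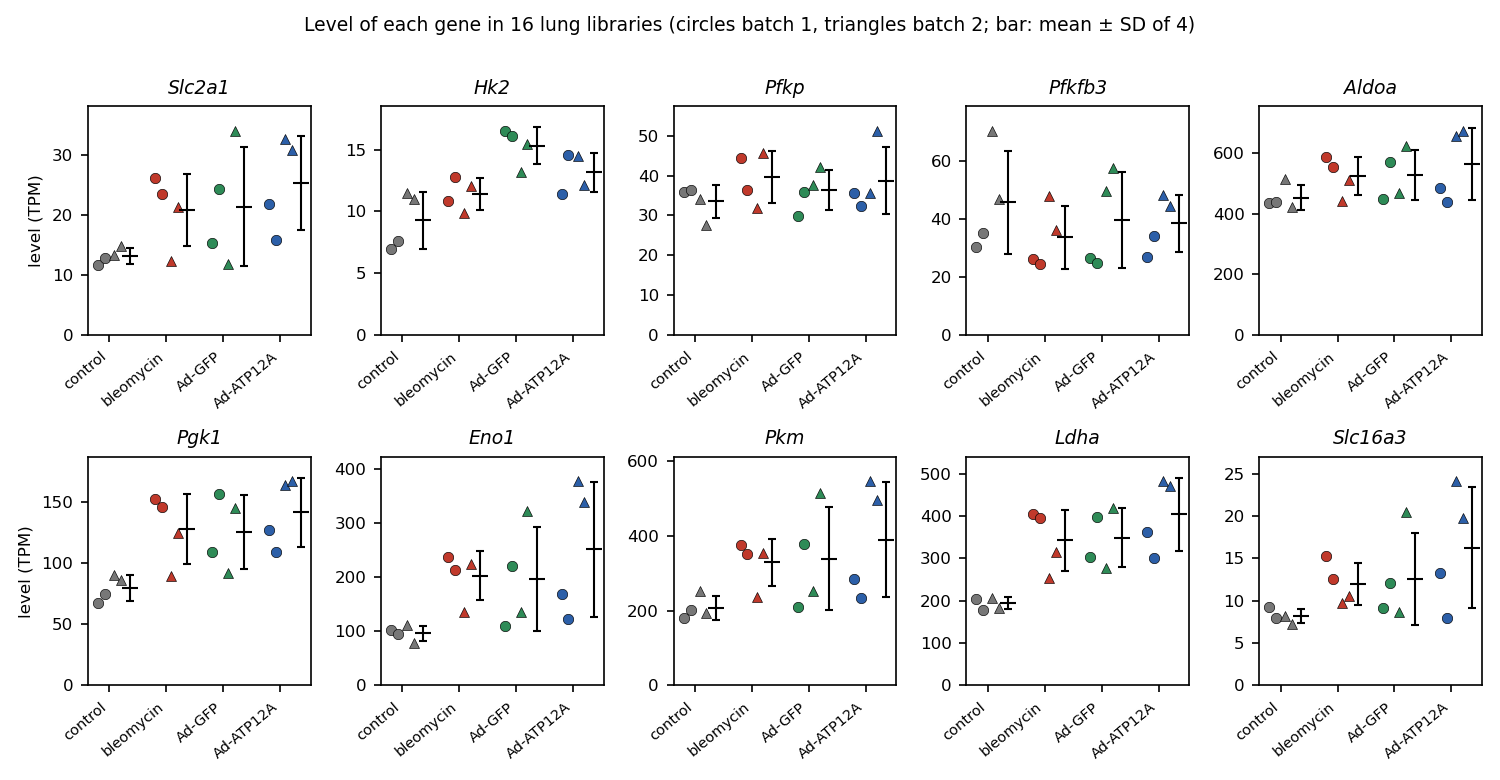
Level of each of the 10 genes in TPM (vertical axis, from 0) in the 16 libraries by group, with circles for batch 1, triangles for batch 2 and a bar for the mean ± SD of 4 libraries. Ldha in all 12 exposed libraries, from 253.5 TPM up, lies above the highest control at 206.8 TPM, while Pfkfb3 is spread by batch within every group.

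Against control, 5 of the 10 members rose in at least 1 exposed group: Ldha, Pgk1, Eno1, Pkm and Hk2. In bleomycin alone, Ldha and Pgk1 rose, which is 2 of 10 members, beside 13.2% of all genes tested that rose and 18.8% that changed in either direction. In Ad-GFP, Ldha and Hk2 rose, again 2 of 10, beside 9.16% that rose and 13.7% in either direction. In Ad-ATP12A, Ldha, Pgk1, Eno1, Pkm and Hk2 rose, which is 5 of 10, beside 13.3% that rose and 22.8% in either direction. No member fell in any of these comparisons, beside 5.61%, 4.52% and 9.49% of all genes that did. The shares of 2 in 10 are near the background, and the 3 comparisons use the same 4 control libraries, so they are not separate evidence. Counted in either direction, members past the threshold in bleomycin were 1 without control b1r1, control b1r2, bleomycin b1r1, b1r2 or b2r2. They were 5 without bleomycin b2r1 and 4 without Ad-ATP12A b1r2. The 5 and the 4 each include Pfkfb3, which was lower (adjusted p = 0.0486 and 0.0495 by limma). The count in Ad-GFP was 1 without Ad-GFP b1r2 or b2r2. The count in Ad-ATP12A was 3 without control b1r1, b1r2 or b2r2 and 2 without Ad-ATP12A b2r1 or b2r2. Without the 3 libraries low in Scgb1a1, 1 member passed in bleomycin and 3 in Ad-ATP12A. Fitted alone, batch 1 gave 6 members in bleomycin and 3 in Ad-ATP12A, and batch 2 gave 0 in bleomycin, 0 in Ad-GFP and 3 in Ad-ATP12A. The share of all genes called moved too. In bleomycin, Ad-GFP and Ad-ATP12A it was 0.171%, 0.4% and 11.8% in batch 2 alone. On leaving out 1 library it was 8.73% to 21.8%, 5.12% to 17.5% and 13.1% to 24.7%. Without the 3 libraries low in Scgb1a1 it was 8.63% in bleomycin. No member's change differed between batches past the threshold in these comparisons, beside 0.0647%, 2.36% and 2.8% of all genes.

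The median log2 fold change of the members was 0.54 in bleomycin, 0.59 in Ad-GFP and 0.81 in Ad-ATP12A, beside 0.05, 0.03 and 0.00 for all genes tested. Fold changes are differences of log2(TPM + 1) from limma with batch as a term, which understates the change of low genes, and p-values are two-sided and adjusted over all genes tested. The levels come from whole lung, where more cells of a kind and more RNA per cell cannot be told apart.

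Ldha, the lactate dehydrogenase subunit that favours turning pyruvate into lactate, was the only member that rose in all 3 exposed groups. Its level was 205.1, 179.1, 206.8 and 183.6 TPM in the 4 control libraries and 404.6, 395.8, 253.5 and 316.0 TPM in bleomycin. In Ad-GFP it was 302.6, 396.8, 277.8 and 419.4 TPM, and in Ad-ATP12A 361.9, 301.6, 481.8 and 470.6 TPM. No exposed library reached down to the control range. The log2 fold change against control was 0.80 ± 0.19 (SE; adjusted p = 0.0116) in bleomycin, 0.83 ± 0.19 (adjusted p = 0.0132) in Ad-GFP and 1.03 ± 0.19 (adjusted p = 0.00269) in Ad-ATP12A. These are ratios of mean TPM of 1.77, 1.80 and 2.09. Leaving out any 1 library kept the calls in bleomycin and Ad-ATP12A, while in Ad-GFP the adjusted p became 0.0536 without Ad-GFP b1r2 and 0.0512 without Ad-GFP b2r2. Inside batch 1 the change in bleomycin was 1.06 and inside batch 2 it was 0.54, a difference between batches that did not pass (adjusted p = 0.345).

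Ldhb encodes the other main subunit, which favours the reverse reaction. Its mean level was 209.6 ± 61.4 TPM in control (SD, n = 4) and 134.2 ± 19.7 TPM in bleomycin, a log2 change of -0.61 that did not pass (adjusted p = 0.247). Ldha made up 48.7% ± 5.25 of the summed TPM of both genes in control and 71.3% ± 7.19 in bleomycin, with ranges of 41% to 52.3% and 60.9% to 76.8% that did not overlap. In Ad-GFP the share was 68.8% ± 15.8 and reached down to 48.3%, inside the control range, and in Ad-ATP12A it was 76.2% ± 11.4 with a lowest value of 62%. The shares are a description, without a test.

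Slc16a3 encodes MCT4, a carrier that exports lactate with a proton. Its level was 9.28, 7.92, 8.14 and 7.24 TPM in control and 15.26, 12.54, 9.69 and 10.54 TPM in bleomycin, so these groups did not overlap, yet the log2 fold change of 0.49 ± 0.29 did not pass (adjusted p = 0.252). In Ad-GFP it was 9.15, 12.07, 8.63 and 20.42 TPM, and in Ad-ATP12A 13.21, 7.94, 24.07 and 19.76 TPM. Each virus group had a library at the level of controls and one over 20 TPM. The change in Ad-ATP12A was 0.81 ± 0.29 (adjusted p = 0.0581), with 0.24 in batch 1 and 1.39 in batch 2 (adjusted p = 0.142 for the difference). It passed without Ad-ATP12A b1r2, the library at 7.94 TPM, at adjusted p = 0.0118, and also without Ad-GFP b2r1 (0.0496) or b2r2 (0.0403) and with a term for Xist (0.0315). Ranges did not overlap on the higher side for Slc16a3, Ldha and Eno1 in bleomycin against control, 3 of 10 members beside 16.5% of all genes tested. The same held in Ad-GFP for Hk2, Pgk1 and Ldha, 3 of 10 beside 10.8%, and in Ad-ATP12A for Slc2a1, Pgk1, Ldha and Eno1, 4 of 10 beside 14%.

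Bsg encodes basigin, the partner that carries MCT4 to the cell surface. It was the 1 gene of 6 tested in the list of other lactate genes that rose in bleomycin, beside 13.2% of all genes tested. Its level went from 535 ± 49.0 to 648.1 ± 25.6 TPM (0.28 ± 0.09, adjusted p = 0.0462). That call ended without any 1 of 15 of the 16 libraries, with adjusted p up to 0.123, and was kept only without control b2r1. Slc16a1, which encodes MCT1, was at 17.7 ± 0.91 TPM in control and 17.1 ± 2.09 TPM in bleomycin (-0.06, adjusted p = 0.795). Of the summed TPM of Slc16a1, Slc16a3 and Slc16a7, Slc16a3 took 19.7% ± 1.61 in control, 29.9% ± 6.30 in bleomycin, 28.3% ± 8.11 in Ad-GFP and 33.7% ± 7.30 in Ad-ATP12A, and the control range of 17.5% to 21.3% overlapped none of the others.

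**Figure D2:**
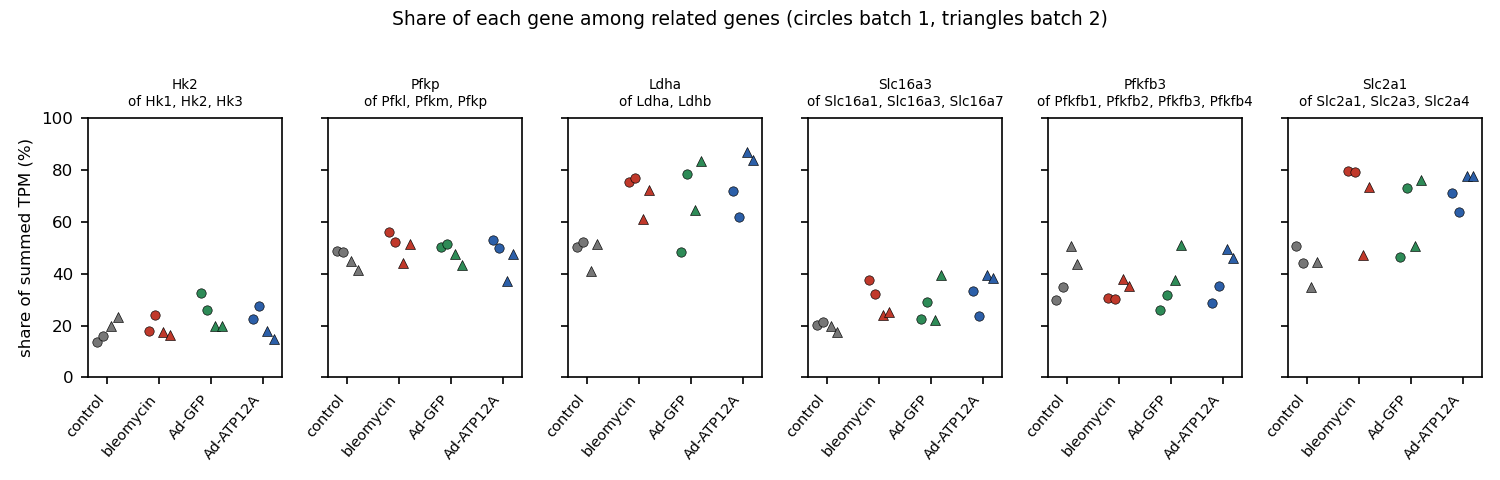
Share of each gene in the summed TPM of its related genes (vertical axis, percent) for 6 of the genes, by group and library, circles for batch 1 and triangles for batch 2. Ldha, Slc16a3 and Slc2a1 take a larger share in most exposed libraries than in control.

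Slc2a1 encodes GLUT1, which brings glucose into most cells. It was at 11.69, 12.74, 13.25 and 14.85 TPM in control, 26.05, 23.41, 12.26 and 21.32 TPM in bleomycin, and 15.27, 24.32, 11.75 and 33.97 TPM in Ad-GFP. In Ad-ATP12A it was 21.78, 15.85, 32.62 and 30.70 TPM, all above the control range, whereas bleomycin b2r1 and Ad-GFP b2r1 lay within it. The log2 fold change was 0.58 ± 0.31 in bleomycin (adjusted p = 0.204), 0.56 ± 0.31 in Ad-GFP (adjusted p = 0.243) and 0.84 ± 0.31 in Ad-ATP12A (adjusted p = 0.0625). The last passed without bleomycin b2r1 (0.0395), Ad-GFP b2r1 (0.0369), Ad-GFP b2r2 (0.0409) or Ad-ATP12A b1r2 (0.0314), and with a term for Xist (0.0133). Slc2a1 took 43.5% ± 6.41 of the summed TPM of Slc2a1, Slc2a3 and Slc2a4 in control, 69.8% ± 15.5 in bleomycin, 61.6% ± 15.2 in Ad-GFP and 72.5% ± 6.65 in Ad-ATP12A.

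Beside 5.61% of all genes tested that fell in bleomycin and 13.2% that rose, 2 of the 8 other glucose carriers tested fell and none rose. They were Slc2a3, which encodes a high-affinity carrier, from 13.5 ± 5.53 to 6.65 ± 2.70 TPM (-0.90, adjusted p = 0.0391), and Slc2a4, the insulin-responsive carrier of muscle and fat, from 4.24 ± 0.75 to 1.93 ± 0.88 TPM (-0.88, adjusted p = 0.013). The call of Slc2a3 ended without any 1 of 6 libraries (adjusted p from 0.0695 to 0.109), 3 of them controls (b1r2, b2r1, b2r2) and 3 bleomycin (b1r1, b1r2, b2r2). In Ad-GFP 0 of the 8 passed by limma, with 1 at an unadjusted p under 0.05. In Ad-ATP12A, Slc2a6, a carrier of lysosomes in macrophages, rose from 2.07 ± 0.26 to 4.10 ± 0.90 TPM (0.72, adjusted p = 0.032) and Slc2a4 fell (-0.82, adjusted p = 0.0155). The call of Slc2a6 ended without control b1r1, b1r2 or b2r2 or Ad-ATP12A b1r1, b2r1 or b2r2 (0.0513 to 0.0997), and that of Slc2a4 without control b1r2 (0.0531) or Ad-ATP12A b2r2 (0.0505). Cardiac muscle markers, 7 genes, were lower in bleomycin against control, from a sum of 379.7 to 757.5 TPM in control libraries to 107.2 to 479.6 TPM in bleomycin, with 1 of 7 past the threshold. The 7 skeletal muscle markers summed to 15.7 to 26.4 TPM in control and 4.58 to 12.3 TPM in bleomycin, with 1 of 4 tested past the threshold, and none of its genes was at 0 in all libraries of a group. The 5 adipocyte markers, 4 of them tested, summed to 18.6 to 75.8 TPM in control and to 0.8, 0.9, 45.7 and 17.6 TPM in bleomycin b1r1, b1r2, b2r1 and b2r2, with a median log2 change of -1.62 and 1 of 4 past the threshold. Slc2a4 was at 1.49, 1.10, 3.13 and 1.98 TPM in the same libraries, highest where the adipocyte sum was highest. In Ad-ATP12A the order differed: Slc2a4 was at 1.14, 2.29, 2.68 and 1.92 TPM in b1r1, b1r2, b2r1 and b2r2. The adipocyte sums there were 2.9, 38.7, 2.7 and 14 TPM, so Slc2a4 was highest where the sum was lowest. The part of muscle and fat markers in the result for Slc2a4 was not tested.

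Hk2, the inducible hexokinase that traps glucose in the cell, stood apart from the others by being highest in the Ad-GFP group. Its level was 6.95, 7.63, 11.53 and 11.02 TPM in control, 10.86, 12.83, 9.84 and 12.03 TPM in bleomycin, and 16.53, 16.15, 13.23 and 15.43 TPM in Ad-GFP. In Ad-ATP12A it was 11.42, 14.58, 14.47 and 12.15 TPM. All 4 Ad-GFP libraries were above all control and all bleomycin libraries, while Ad-ATP12A overlapped each of them. Hk2 rose against control in Ad-GFP by 0.69 ± 0.15 (adjusted p = 0.0112), also without any 1 library, and in Ad-ATP12A by 0.48 ± 0.15 (adjusted p = 0.0358). The call in Ad-GFP ended by limma with only the 8 libraries compared (adjusted p = 0.0561) and in batch 2 alone (0.364). That in Ad-ATP12A ended without control b1r1 (adjusted p = 0.108), control b1r2 (0.102), Ad-ATP12A b1r2 (0.0824), b2r1 (0.0962) or b2r2 (0.0523). It ended too with only the 8 libraries compared (0.0593) and in batch 2 alone (0.41). Both controls of batch 1 were lower than both controls of batch 2, and the change in Ad-GFP was 1.07 inside batch 1 and 0.32 inside batch 2 (adjusted p = 0.0883 for the difference).

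Pfkp, the platelet form of phosphofructokinase at the committed step, ranged from 27.5 to 51.2 TPM over all libraries and did not pass in any comparison. Its group means were 33.5 ± 4.12, 39.6 ± 6.60, 36.4 ± 5.05 and 38.7 ± 8.48 TPM in control, bleomycin, Ad-GFP and Ad-ATP12A, and all groups overlapped. Pfkfb3 makes fructose 2,6-bisphosphate, the activator of that step, and was the 1 member with a negative value in all 3 comparisons with control. It was at 30.28, 35.08, 70.48 and 47.05 TPM in control and 26.19, 24.41, 47.94 and 36.31 TPM in bleomycin. Levels of batch 2 were above those of batch 1 in every group, and inside batches bleomycin lay below control by similar amounts, -0.35 and -0.46. The log2 fold change was -0.40 ± 0.14 in bleomycin (adjusted p = 0.0601). It passed under quantile normalization (adjusted p = 0.0241) and median-ratio scaling (adjusted p = 0.0225), and without control b2r2 (0.026), bleomycin b2r1 (0.0486) or Ad-ATP12A b1r2 (0.0495).

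Aldoa, the aldolase that cleaves the phosphorylated sugar, was the most abundant member, from 422.8 to 672.8 TPM, and did not pass in any comparison. Its largest log2 fold change was 0.30 ± 0.15 in Ad-ATP12A (adjusted p = 0.174). The symbol belongs to 2 identifiers in the table. The values are those of the one with the higher level, and the other held 0.30 to 0.92 TPM.

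The later steps of the chain earn ATP. Pgk1, phosphoglycerate kinase, was at 67.16, 74.30, 89.89 and 86.18 TPM in control and 152.2, 146.1, 89.26 and 124.5 TPM in bleomycin, with b2r1 inside the control range. In Ad-GFP it was 109.1, 156.8, 92.05 and 144.8 TPM, and in Ad-ATP12A 126.8, 108.8, 163.8 and 166.8 TPM, both above all controls. It rose in bleomycin (0.66 ± 0.21, adjusted p = 0.0392) and in Ad-ATP12A (0.81 ± 0.21, adjusted p = 0.014), and was 0.63 ± 0.21 in Ad-GFP (adjusted p = 0.0567). The call in Ad-ATP12A was kept without any 1 library. That in bleomycin ended without control b1r1 (adjusted p = 0.104), control b1r2 (0.0919), bleomycin b1r1 (0.13), b1r2 (0.119) or b2r2 (0.0789), without the 3 libraries low in Scgb1a1 (0.102), and under median-ratio scaling (0.0718) and quantile normalization (0.0715). Ad-GFP passed without bleomycin b2r1 (0.0332) or Ad-GFP b2r1 (0.0203), and with a term for Xist (0.0258). The rise in bleomycin was 1.07 in batch 1 and 0.26 in batch 2 (adjusted p = 0.209 for the difference).

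Eno1, the enolase of most tissues, had the largest fold changes of the 10. It was at 102.4, 94.9, 111.1 and 78.09 TPM in control and 237.7, 212.8, 136.4 and 225.0 TPM in bleomycin, which did not overlap. In Ad-GFP it was 109.1, 220.0, 135.0 and 322.5 TPM, with b1r1 among the controls, and in Ad-ATP12A 168.8, 121.9, 377.5 and 338.6 TPM. The log2 fold change was 1.04 ± 0.35 in bleomycin (adjusted p = 0.0543) and 0.90 ± 0.35 in Ad-GFP (adjusted p = 0.105), and Eno1 rose by 1.23 ± 0.35 in Ad-ATP12A (adjusted p = 0.0247). Inside Ad-ATP12A the change was 0.54 in batch 1 and 1.93 in batch 2 (adjusted p = 0.159 for the difference). The Ad-ATP12A call ended without control b2r2 (0.0616), Ad-ATP12A b2r1 (0.0834) or b2r2 (0.0791), or without the 3 libraries low in Scgb1a1 (0.0568). The bleomycin value passed without bleomycin b2r1 (0.0208), Ad-GFP b2r1 (0.0485), Ad-GFP b2r2 (0.043) or Ad-ATP12A b1r2 (0.0411), and with a term for Xist (0.0339). A near-identical copy, Eno1b, was listed at 7.33 to 31.25 TPM, so some reads of Eno1 may be counted there.

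Pkm, which makes pyruvate and whose M1 and M2 splice forms were not analysed here, was at 181.5, 202.4, 253.1 and 193.7 TPM in control and 376.5, 352.1, 236.1 and 354.2 TPM in bleomycin. In Ad-GFP it was 211.1, 379.7, 252.3 and 516.6 TPM, and in Ad-ATP12A 285.3, 234.1, 546.6 and 495.5 TPM. Each exposed group had at least 1 library within the control range. Pkm rose in Ad-ATP12A (0.83 ± 0.28, adjusted p = 0.0475), a call that ended without any 1 of 10 of the 16 libraries, with adjusted p from 0.0503 to 0.142. These were the 4 controls, bleomycin b1r1, b1r2 and b2r2, and Ad-ATP12A b1r1, b2r1 and b2r2. It ended under median-ratio scaling too (0.0543), and without the 3 libraries low in Scgb1a1 (0.0773). In bleomycin it was 0.65 ± 0.28 (adjusted p = 0.12) and passed without bleomycin b2r1 (0.0371).

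**Figure D3:**
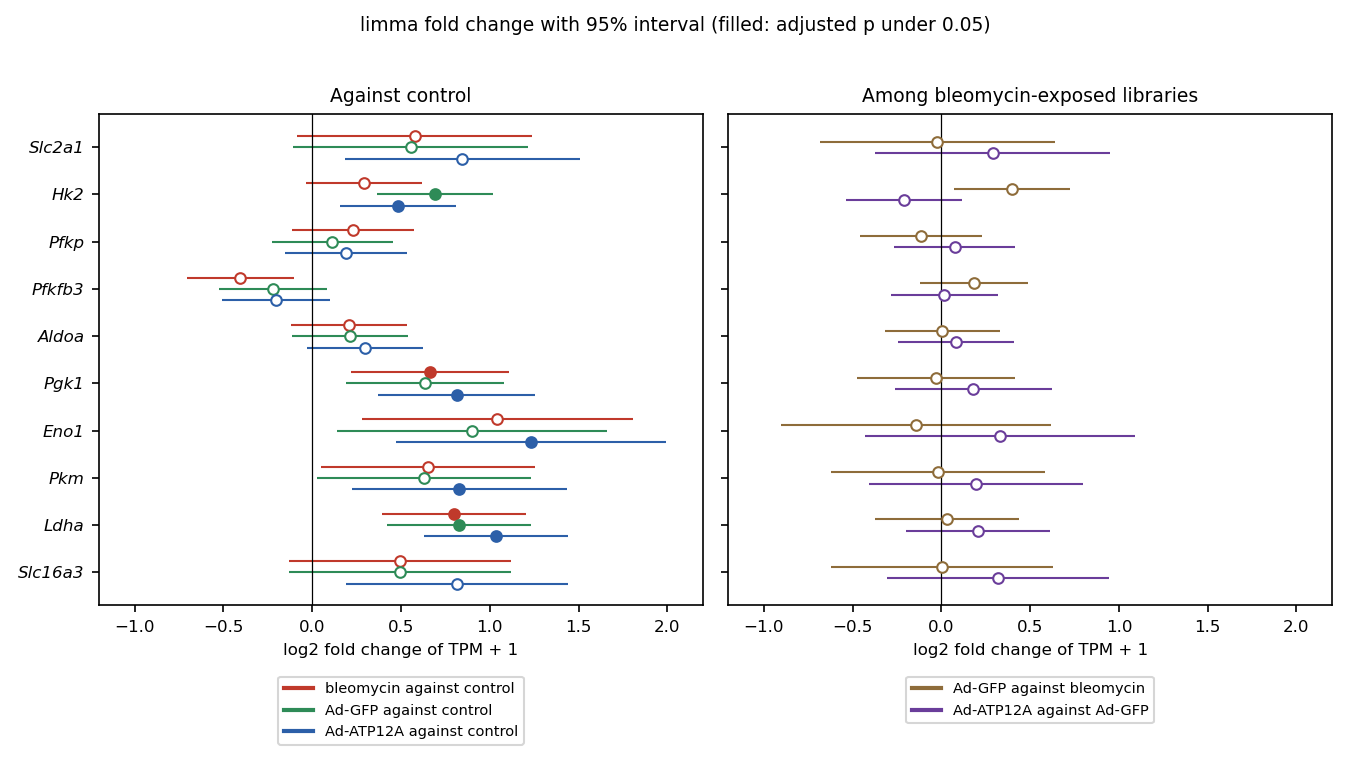
Log2 fold change of TPM + 1 with its 95% interval (horizontal axis) for each of the 10 genes, against control at the left and among exposed groups at the right, with filled points for an adjusted p under 0.05. Filled points are 2, 2 and 5 in the comparisons with control and 0 among the exposed groups.

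Neither virus group differed in these genes from its bleomycin comparator past the threshold. Ad-GFP against bleomycin gave 0 of 10 members by limma, with 1 at an unadjusted p under 0.05, beside 0.0118% of all genes past the adjusted threshold and 1.69% at the unadjusted one. That 1 was Hk2, higher by 0.40 (95% interval 0.07 to 0.73, adjusted p = 0.9998), whose groups did not overlap, as for 0.276% of all genes on the higher side. Ad-ATP12A against Ad-GFP, which differ by the transgene, gave 0 of 10 by limma and 0 at an unadjusted p under 0.05, beside 0.00588% and 2.43% of all genes. The member with the smallest p was Hk2, at -0.21 (interval -0.54 to 0.12), and the interval of Eno1 ran from -0.43 to 1.09 around 0.33. The interval of Ldha ran from -0.20 to 0.61 and that of Slc16a3 from -0.31 to 0.94, so for Eno1 a difference as large as the 0.90 between Ad-GFP and control was within its interval.

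Among the members, Ad-ATP12A against Ad-GFP often changed sign between batches. For Slc2a1, Aldoa, Pgk1, Eno1, Pkm, Ldha and Slc16a3, Ad-ATP12A lay below Ad-GFP in batch 1 and above it in batch 2. Values were -0.11 and 0.77 for Eno1 and -0.07 and 0.48 for Ldha. The batch 1 values of these genes were small, from -0.03 for Slc16a3 to -0.15 for Pgk1. Pfkfb3 had the opposite order (0.24 and -0.20), while Hk2 (-0.32 and -0.10) and Pfkp (0.05 and 0.10) kept their sign. In batch 2 the members summed to 1346.5 and 2194.1 TPM in Ad-GFP b2r1 and b2r2, and to 2379.9 and 2302.5 TPM in Ad-ATP12A. The batch 2 difference in this sum thus came mostly from the low Ad-GFP b2r1. No member's difference between batches passed, the smallest adjusted p being 0.756 (limma, Pgk1 and Ldha among them). Atp12a itself was at 5.13 and 2.96 TPM in the batch 1 libraries of Ad-ATP12A and 29.02 and 25.70 TPM in those of batch 2, and at most 0.20 TPM in the 12 others. Its part in the result was not tested.

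Inside the 12 exposed libraries, 7 of the 10 genes went up and down together. With the mean of each batch removed, the Pearson correlations of log2(TPM + 1) among Slc2a1, Aldoa, Pgk1, Eno1, Pkm, Ldha and Slc16a3 had a lowest value of 0.90, between Pgk1 and Slc16a3, and a highest of 0.99, between Eno1 and Pkm. Pfkp had a median of 0.61 with the other members, Hk2 0.19 and Pfkfb3 -0.12. Libraries of 1 group and batch could stand far apart: Pkm was 252.3 TPM in Ad-GFP b2r1 and 516.6 TPM in b2r2 of the same group and batch. These are descriptions over 12 libraries that share groups and batches and are scaled to a common total, without a p. The 7 were grouped by these same values, and group means were not removed. How often other genes correlate as strongly was not computed, so the values are not shown to be particular to these genes.

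Other traits of the libraries moved along with these genes. The share of TPM from mitochondrial genes was 5.92% in Ad-GFP b2r2 and 5.61% and 5.31% in Ad-ATP12A b2r1 and b2r2, the 3 libraries with the highest sums of the 10 genes, and 7.50% to 11.5% in the 13 others. Xist, the RNA of the inactive X chromosome, was at 10 TPM or more in bleomycin b2r1, Ad-GFP b1r1 and Ad-ATP12A b1r1 and b1r2, each among the lowest sums of its group, and in Ad-ATP12A b2r2, which had a high one. Of the controls, b1r1 held it. With a term for Xist, 7 members passed in Ad-ATP12A and 3 in each of the other groups against control, and the part of the mitochondrial share was not tested.

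**Figure D4:**
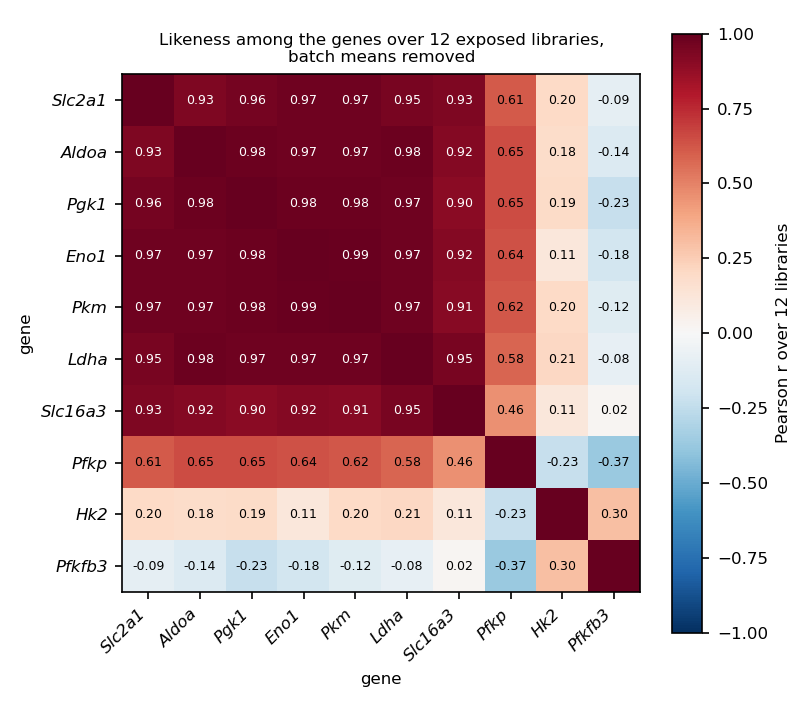
Pearson correlation of each pair of genes over the 12 exposed libraries after removing batch means (both axes are the 10 genes, colour from -1 to 1). A block of 7 genes shows values from 0.90 to 0.99, and Pfkfb3 is between -0.37 and 0.30 with all others.

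Summed markers of scar cells moved with these genes, though not every single marker did. The summed level of 6 scar macrophage markers (Spp1, Trem2, Gpnmb, Mmp12, Arg1 and Fabp5) was 298.2 to 394.8 TPM in control, and none was at 0 throughout a group. In bleomycin it was 3646, 3315, 1805 and 3395 TPM, in Ad-GFP 1273, 6146, 1877 and 5108 TPM, and in Ad-ATP12A 1884, 1385, 4203 and 5587 TPM. Bleomycin b2r1 was the lowest of its group both here and in the sum of the 10 glycolysis genes, Ad-GFP b1r1 and b2r1 were the 2 lowest of theirs in both, and so were Ad-ATP12A b1r1 and b1r2. In bleomycin 4 of the 6 rose, in Ad-GFP 4 and in Ad-ATP12A 5. Spp1 was the largest part of the sum in every exposed library. In Ad-ATP12A, Spp1, Trem2, Gpnmb and Arg1 were lowest in b1r1 and b1r2. Fabp5 was highest there, at 198.6, 230.5, 160.4 and 165.2 TPM in the 4 libraries, and Mmp12 was lowest in b2r1, at 16.78 TPM. The sum of 6 scar fibroblast markers had the same low libraries: it was 400.7 to 541.4 TPM in control, and 2419, 1711, 1195 and 2186 TPM in bleomycin and 886.3, 2116, 1261 and 2385 TPM in Ad-GFP. In Ad-ATP12A it was 997.6, 1230, 3391 and 2289 TPM, again higher in both libraries of batch 2. The 5 markers of dividing cells all rose in all 3 comparisons, from a sum of 15.7 to 29.0 TPM in control to 95.9 to 185.8 TPM in bleomycin.

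Markers of alveolar type 2 cells, which make surfactant, had the opposite order of libraries. Their 6 genes summed to 24455 to 35732 TPM in control and to 12077, 16824, 30824 and 15622 TPM in bleomycin. In Ad-GFP the sum was 37683, 19382, 30545 and 7407 TPM, and in Ad-ATP12A 20267, 34660, 6990 and 10830 TPM. The libraries named as lowest in the sums of scar macrophage markers and of glycolysis genes were the highest of their groups here. None of the 6 passed in a comparison with control by limma, with 1, 0 and 3 at an unadjusted p under 0.05. The part of all these cell markers in the results was not tested.

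Other enzymes of the same chain moved in both directions. Of 14 tested, 3 rose and 2 fell in bleomycin, 3 rose and 1 fell in Ad-GFP, and 4 rose and 3 fell in Ad-ATP12A, with medians of 0.14, 0.17 and 0.26. Of all genes tested, 13.2% rose and 5.61% fell in bleomycin, 9.16% and 4.52% in Ad-GFP, and 13.3% and 9.49% in Ad-ATP12A. The counts of every gene list and marker list given here stand beside those shares, with no test of a list. Hk3, a hexokinase of myeloid cells, rose in each, from 2.67 ± 0.69 TPM in control to 8.65 ± 3.16 TPM in bleomycin (1.35, adjusted p = 0.00835). Pgam1, phosphoglycerate mutase, rose by 0.73 in bleomycin (adjusted p = 0.0374), 0.71 in Ad-GFP (adjusted p = 0.0499) and 0.88 in Ad-ATP12A (adjusted p = 0.0141). Eno2, the neuronal enolase, rose by 0.72, 0.78 and 0.84. Gapdh, a frequent reference gene, rose in Ad-ATP12A from 563.9 ± 88.4 to 1115 ± 503 TPM (0.88, adjusted p = 0.0430), with 0.16 inside batch 1 and 1.59 inside batch 2.

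The chain enzymes that fell were forms known from muscle. Pfkm, the muscle phosphofructokinase, fell from 17.1 ± 0.89 TPM in control to 12.9 ± 3.73, 12.2 ± 2.45 and 11.2 ± 2.65 TPM (-0.42, -0.47 and -0.59). Eno3, the muscle enolase, fell from 24.2 ± 2.42 to 14.1 ± 4.30 TPM in bleomycin (-0.78, adjusted p = 0.0193) and to 11.1 ± 2.50 TPM in Ad-ATP12A (-1.08, adjusted p = 0.00332), and Pgam2, the muscle mutase, fell in Ad-ATP12A (-1.25, adjusted p = 0.0238). Of the 7 cardiac muscle markers, 6 fell in Ad-ATP12A, with a sum of 83.5 to 304.4 TPM beside 379.7 to 757.5 TPM in control, and their part in these falls was not tested. In bleomycin, the calls of Eno2, Pgam1, Pfkm and Eno3 each ended without at least 1 library (adjusted p from 0.0516 to 0.139): the 4 controls, bleomycin b1r1, b1r2 and b2r2, Ad-GFP b1r1 and b1r2, and Ad-ATP12A b2r1 and b2r2. In Ad-GFP those of Eno2, Pgam1, Hk3 and Pfkm did so (0.0503 to 0.168), over all libraries but bleomycin b2r1, Ad-GFP b2r1 and Ad-ATP12A b1r2. In Ad-ATP12A those of Eno2, Pgam1, Pgam2 and Gapdh did so (0.0508 to 0.131), over the 4 controls, bleomycin b1r2 and b2r2, and Ad-ATP12A b1r1, b2r1 and b2r2.

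The branches that leave the chain held genes that rose and none that fell. Of 6 genes of the serine branch, which draws on phosphoglycerate, the product of Pgk1, 2 rose in bleomycin, 2 in Ad-GFP and 3 in Ad-ATP12A, and none fell. Psat1, its aminotransferase, was at 8.33 ± 1.40 TPM in control, 21.4 ± 7.08 in bleomycin, 19.2 ± 5.76 in Ad-GFP and 24.4 ± 4.97 in Ad-ATP12A, a ratio of 2.57 in bleomycin (1.21, adjusted p = 0.00832). Mthfd2, the mitochondrial folate enzyme that uses serine's carbon, was at 4.92 ± 0.40 TPM in control and 12.1 ± 3.17 in bleomycin (1.11, adjusted p = 0.00305). Shmt2, which hands that carbon to folate in mitochondria, was the other to rise in Ad-ATP12A (0.55, adjusted p = 0.0301), a call that ended without control b1r1, b1r2 or b2r2 or Ad-ATP12A b2r1 or b2r2 (0.0537 to 0.0964). Those of Mthfd2 and Psat1 in Ad-GFP ended without Ad-GFP b1r2 or b2r2, and that of Psat1 also without control b1r1 (0.0589 to 0.0758).

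The pentose phosphate branch makes NADPH and the sugar of nucleotides. Of its 7 genes tested, Pgls, Pgd, Tkt and Taldo1 rose in bleomycin by 0.50, 0.50, 0.38 and 0.37, Pgls rose in Ad-GFP by 0.47, and Pgls and Pgd rose in Ad-ATP12A by 0.55 and 0.43. The 4 calls in bleomycin each ended without at least 1 library (adjusted p from 0.0519 to 0.0908), over the 4 controls and bleomycin b1r1, b1r2 and b2r2. That of Pgls in Ad-GFP ended without control b1r1 or b1r2 or Ad-GFP b1r2 or b2r2 (0.0735 to 0.115). That of Pgd in Ad-ATP12A ended without control b1r2, b2r1 or b2r2, bleomycin b1r2 or b2r2, or Ad-ATP12A b1r1, b2r1 or b2r2 (0.0533 to 0.139).

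Of 13 genes tested of pyruvate entry into mitochondria, 0 rose and 1 fell in bleomycin, 2 fell in Ad-GFP and 2 fell in Ad-ATP12A, beside 18.8%, 13.7% and 22.8% of all genes that changed in either direction. Pdk2, a kinase that holds pyruvate dehydrogenase inactive, fell from 29.6 ± 3.41 TPM in control to 18.4 ± 4.07 in bleomycin (-0.67, adjusted p = 0.0119), to 20.3 ± 4.23 in Ad-GFP (-0.54, adjusted p = 0.0401) and to 17.1 ± 2.12 in Ad-ATP12A (-0.76, adjusted p = 0.00552). Pdp2, a phosphatase that works the other way, fell in the virus groups by 0.44 and 0.41 on the log2 scale. Pdk1, the kinase known as a hypoxia target, was lower in bleomycin without passing (-0.48, adjusted p = 0.0762). The calls of Pdk2 and Pdp2 in Ad-GFP ended without control b1r2 or Ad-GFP b1r2 or b2r2, and that of Pdk2 also without control b1r1 or b2r1, bleomycin b2r2 or Ad-ATP12A b1r1 or b2r2 (adjusted p up to 0.136). That of Pdp2 in Ad-ATP12A ended without control b1r2 or Ad-ATP12A b2r1 (up to 0.0597). None of the 4 genes tested that set fructose 2,6-bisphosphate beside Pfkfb3 passed in a comparison with control, and 0 of the 4 had an unadjusted p under 0.05 by limma.

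Of 15 hypoxia genes outside glycolysis that were tested, 1 rose and 2 fell in bleomycin, 2 rose in Ad-GFP, and 3 rose and 1 fell in Ad-ATP12A, with medians of 0.20, 0.19 and 0.22. Ankrd37, a small ankyrin protein, rose in each, from 9.60 ± 1.45 TPM in control to 40.7 ± 16.6, 45.2 ± 39.0 and 58.4 ± 26.6 TPM (1.89, 1.76 and 2.35). Ddit4, an inhibitor of mTOR signalling, rose in Ad-GFP (0.94) and Ad-ATP12A (1.28), and Egln3 in Ad-ATP12A (0.64). Egln1, an oxygen sensor that marks the factors for destruction, fell in bleomycin (-0.31) and Ad-ATP12A (-0.32), and Mxi1, a repressor of Myc targets, fell in bleomycin (-0.47). Vegfa, the vessel growth factor, was at 620.9 ± 72.8 TPM in control and 474 ± 52.4 TPM in bleomycin, where it did not pass (-0.39, adjusted p = 0.235). In bleomycin the calls of Ankrd37 and Egln1 ended without at least 1 of control b1r1, b1r2 and b2r1 and bleomycin b1r1, b1r2 and b2r2 (adjusted p from 0.0505 to 0.111). In Ad-GFP those of Ddit4 and Ankrd37 ended without at least 1 of the 4 controls, bleomycin b2r2 and Ad-GFP b1r2 and b2r2 (0.0501 to 0.125). In Ad-ATP12A those of Egln1 and Egln3 ended without at least 1 of control b1r1, b1r2 and b2r1 and Ad-ATP12A b1r1 and b2r1 (0.051 to 0.0866). Ero1a, an oxidase of protein folding listed under its older symbol Ero1l, passed in no comparison with control, but its change differed between batches in Ad-GFP (by 0.86, adjusted p = 0.0376) and Ad-ATP12A (by 0.75, adjusted p = 0.0457).

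Among the factors themselves, Epas1, the subunit HIF-2 alpha of endothelium and alveolar cells, fell in all 3 groups and was the 1 gene of 6 to pass. It was at 1007 ± 136 TPM in control, 510.2 ± 171 in bleomycin, 498 ± 232 in Ad-GFP and 412.1 ± 112 in Ad-ATP12A (-1.03, -1.10 and -1.33, adjusted p = 0.00993, 0.0101 and 0.00241). Without the 3 libraries low in Scgb1a1, the calls ended by limma in bleomycin (adjusted p = 0.0601) and Ad-GFP (0.0657). In batch 2 alone they ended in all 3 groups (0.347, 0.261 and 0.0574). Hif1a was at 32.1 ± 2.31 TPM in control and 46.4 ± 16.8 in bleomycin, a change that did not pass (0.46, adjusted p = 0.204). The 5 endothelial markers (Pecam1, Cdh5, Cldn5, Kdr and Tek) summed to 1149 to 1639 TPM in control and 612 to 1177 TPM in bleomycin, where 2 of 5 fell, and 5 of 5 fell in Ad-ATP12A. Their part in the fall of Epas1 was not tested.

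Over all these lists, 79 genes other than the 10 were tested. In bleomycin 11 rose and 8 fell with a median of 0.12, in Ad-GFP 8 rose and 4 fell with 0.08, and in Ad-ATP12A 13 rose and 8 fell with 0.12. Those past the threshold were 24.1%, 15.2% and 26.6% of the 79, near the 18.8%, 13.7% and 22.8% of all genes tested. Ad-GFP against bleomycin and Ad-ATP12A against Ad-GFP each gave 0 by limma, with 3 at an unadjusted p under 0.05 in each. The count in bleomycin was 12, 10, 7, 7 and 11 without control b1r1, control b1r2, bleomycin b1r1, b1r2 and b2r2. In Ad-GFP the 12 became 5 without control b1r1 or b1r2 and 1 without Ad-GFP b1r2 or b2r2, and in Ad-ATP12A the 21 became 12 without control b1r2 and 11 without Ad-ATP12A b2r1. Without the 3 libraries low in Scgb1a1 it was 6 in bleomycin and 5 in Ad-GFP. The share of all genes called fell too, to 8.63% and 8.09% without those 3. In bleomycin it was 11.7%, 8.73%, 10.1% and 11.6% without control b1r2 and bleomycin b1r1, b1r2 and b2r2. In Ad-GFP it was 7.8%, 6.68%, 5.12% and 5.69% without control b1r1, control b1r2, Ad-GFP b1r2 and Ad-GFP b2r2. In Ad-ATP12A it was 15.0% without control b1r2 and 13.1% without Ad-ATP12A b2r1.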

How the data were processed

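Lung RNA from 16 libraries was sequenced. The submitters' processing notes name STAR, an aligner, RSEM, a quantifier, and the build GRCm39 (mm39), without versions. The deposited table holds log2 values of TPM plus 1, per the file headers and its values: turned back, each column sums to between 999999.12 and 1000000.82 TPM. TPM carries no read depth, so counting error is unknown; 15537 to 16336 genes per library reached 1 TPM. Symbols came from GENCODE M21 (52093 identifiers matched, 1554 did not), and start site sequences from RefSeq on GRCm38.p6.

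Genes at 1 TPM or more in 4 or more libraries (17003) were fitted with limma 3.58.1 in R 4.3.3: log2(TPM + 1), 4 group means plus batch, all 16 libraries, trended prior variance, Benjamini-Hochberg adjustment, threshold 0.05. The pipeline was tested on simulated data. Batch differences were an interaction in 8 group-by-batch means; within-batch values are untested differences of means of 2 libraries per group. Figures used Python 3.11.15 and matplotlib 3.10.9. Alternatives were a pseudocount of 0.1, other filters, scalings and models, each batch alone, library subsets and leaving out each library. Named were all 10 members, of each pathway list up to 4 genes with the smallest p or every gene past the threshold where 5 or fewer, and genes of the paralog shares. Members and lists were chosen with earlier results of these data known. Protein sequences were not used here.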

Additional observations from a re-analysis of the deposited data

Results flagged for a closer look

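Pkm in bleomycin had 1 library far from its group. Its 236.1 TPM in b2r1 lay below the other bleomycin libraries (352.1 to 376.5 TPM). On the scale of log2(TPM + 1), the gap to the nearest was 0.856 of the group's whole range. The critical value for 4 libraries is 0.829, and the gap taken in TPM fell just short of it. Of 40 sets of 1 member in 1 group looked at on the log2 scale, this was the 1 that exceeded the critical value. Chance alone does so in about 5% of such sets. Bleomycin b2r1 was also the lowest of its group in the summed scar macrophage and scar fibroblast markers, whose part in the value was not tested.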

How the results depend on the processing

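No called value changed sign under any alternative. Counts here are of genes past the threshold in either direction. In bleomycin, the 7 members with array weights and the 5 on leaving out 1 library include Pfkfb3, which was lower. Ad-GFP against bleomycin and Ad-ATP12A against Ad-GFP gave 0 members and 0 other pathway genes throughout. In bleomycin against control, where 2 members passed, the count was 1 with no filter, 5 with the 8 libraries compared alone, 7 with array weights, 6 in batch 1 alone, 0 in batch 2 alone, 1 without the libraries low in Scgb1a1 and 1 to 5 on leaving out 1 library; the count of 19 other pathway genes became 10 with no filter, 39 with array weights, 0 in batch 2 alone, 6 without the libraries low in Scgb1a1 and 7 to 21 on leaving out 1 library. In Ad-GFP, 2 members became 1 with 8 libraries alone, 0 in batch 2 alone and 1 to 3 on leaving out 1; 12 pathway genes became 5 with no filter, 3 with 8 libraries, 25 with array weights, 0 in batch 2 alone, 5 without the libraries low in Scgb1a1 and 1 to 15 on leaving out 1. In Ad-ATP12A, 5 members became 2 with no filter, 3 with quantile normalization, 3 in either batch alone, 3 without the libraries low in Scgb1a1, 7 with a term for Xist, 6 with array weights and 2 to 7 on leaving out 1; 21 pathway genes became 33 with a term for Xist and 11 to 25 on leaving out 1. The share of all genes called was 18.8%, 13.7% and 22.8% and ranged from 0.171% to 44.8%, 0.4% to 29.5% and 7.94% to 34.1%. The causes were not tested.

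With a replicate block, members past the threshold were 1 in bleomycin and 3 in Ad-ATP12A. The labels do not say whether equal replicate numbers pair libraries across groups. Over 12 pairs of groups, same-numbered libraries' deviations correlated between -0.16 and 0.21, with 1 pair over 0.1. With 2 libraries per group and batch, these values cannot show whether libraries were paired.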
